A study of Mus musculus with 7 samples.

Results

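The genes described here encode the complement and coagulation systems of blood plasma with their inhibitors, 54 protein-coding genes in all, measured in mouse precision-cut liver slices (PCLS) cultured for 3 days without or with valproic acid (VPA). They were listed by function (complement, coagulation, fibrinolysis and the inhibitors of each) and matched to Ensembl identifiers through the GENCODE annotation of GRCm38, out of 55487 genes in the count table. The rule uses no measured value, although earlier results of these data were known when the list was drawn up. Of the 54 genes, 41 passed the filter on low counts, as did 10876 genes of the whole table, and the other 13 are given by their counts.

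PCLS are thin discs of liver that keep the cells of the tissue in place. All slices came from the livers of healthy adult male Balb/c mice and were kept in supplemented Williams' Medium E on a shaker until day 3. The CTR group (3 libraries) received no VPA, and the VPA group (4 libraries) was kept in 2.5 mM VPA, an antiepileptic drug that inhibits class I histone deacetylases. RNA was read at the 3' end of its transcripts, and 1400887 to 4773750 counts fell on genes per library. Levels are given as CPM, the counts scaled to library size after TMM normalization, so that 1 count was worth between 0.197 and 0.803 CPM. The sample titles carry a slice culture number, whose meaning the labels do not give: CTR replicate 3 and VPA replicate 3 carry 71, CTR replicate 1 and VPA replicate 4 carry 72, CTR replicate 2 and VPA replicate 2 carry 74, and VPA replicate 1 alone carries 73. The study's methods count each biological repeat as a separate liver, while the labels tie no library to a mouse, so the p-values measure the spread between the libraries of a group, taken as separate livers. There was no library of uncut liver or of day 0, so nothing can be said about the levels at the start of culture.

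Complement is a cascade of plasma proteases and binding proteins in which C3 is cleaved on a target surface and a pore of terminal components can follow. Coagulation is a second cascade, which ends in thrombin (encoded by F2) cutting fibrinogen into fibrin, and plasmin later dissolves the fibrin. Hepatocytes make most of these proteins and secrete them into blood. Von Willebrand factor, factor VIII, thrombomodulin and tissue factor pathway inhibitor come largely from endothelium, properdin from leukocytes and factor D from adipocytes.

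The hepatocyte markers had a summed level of 6021 to 17864 CPM in CTR and 4358 to 15337 CPM in VPA over 12 genes. Not every marker had counts in every library. The amino acid enzyme gene Tat lay at or below 4.61 CPM, with 0 counts in CTR replicate 3 and VPA replicates 1, 3 and 4. The urea cycle gene Cps1 lay at or below 22.9 CPM, with 0 counts in CTR replicate 2 and VPA replicate 2. Pck1 had 0 counts in CTR replicate 1 and VPA replicate 4, and Cyp2e1 in CTR replicate 1. The summed level of 10 liver endothelial markers was 281 to 308 CPM in CTR. In VPA replicates 1 to 4 it was 69.2, 276, 84.3 and 177 CPM. Of the 9 tested, 7 had negative and 2 positive log2 fold changes (VPA over CTR). Tek was listed at 0 in all 4 VPA libraries, while Clec4g was listed at 0 in all 3 CTR libraries. The 10 macrophage markers summed to 367 to 519 CPM, with Adgre1 and Marco at 0 throughout. All 4 neutrophil markers and all 3 adipocyte markers were at 0 in all 7 libraries. In these bulk samples, fewer cells of a type and less RNA per cell cannot be told apart.

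The question of the comparison was whether the genes of these plasma cascades stood at other levels in slices kept with VPA. None of the 41 tested genes passed. With edgeR's quasi-likelihood test and Benjamini-Hochberg adjustment over all tested genes, 0 of 41 had an adjusted p under 0.05, where 0.00919% of all tested genes did, and the smallest adjusted p was 0.639. At an unadjusted p under 0.05, 0 were lower with VPA (4.62% of all genes) and 0 were higher (3.65%). With DESeq2, 47 of the 54 genes received an adjusted p and 0 of these were called (1.01% of all genes with one), 0 had an unadjusted p under 0.05 and the smallest adjusted p was 0.698. No gene had every VPA library below every CTR library (7.41% of all tested genes) or every VPA library above every CTR library (4.44%).

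The point estimates lay below 0 more often than above it. The log2 fold change (VPA over CTR) was negative in 31 of 41 genes (75.6%, against 54.2% of all tested genes), with a median of -0.25 against -0.06 over all genes. Of the 10 tested hepatocyte markers, 2 had negative and 8 positive log2 fold changes, with a median of 0.48. The count of negative values among the listed genes moved with single libraries. It was 23 of 45 genes (51.1%, against 55.6% of all tested genes) without CTR replicate 3, 23 of 44 (52.3%, against 54.6%) without VPA replicate 4 and 22 of 40 (55.0%, against 54.8%) without VPA replicate 2. Leaving out any of the other 4 libraries gave 75.0% to 82.6%, against 52.5% to 54.7% of all genes, and leaving out slice culture 71 gave 28 of 45 (62.2%, against 56.4%).

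The precision differed widely between the genes. The 95% confidence interval of the log2 fold change, an approximation from edgeR's test, lay within -1 and 1 for 5 of them. These were the C3 gene, Masp1, Serping1, Cd59a and Serpina1a, and a 2-fold difference either way was outside their intervals. At the other end, 8 genes had a standard error (SE) above 1 on the log2 scale, and 7 of these 8 had at least 1 library at 0 counts. For the other 36 genes the interval reached past a 2-fold difference in at least 1 direction.

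**Figure D1:**
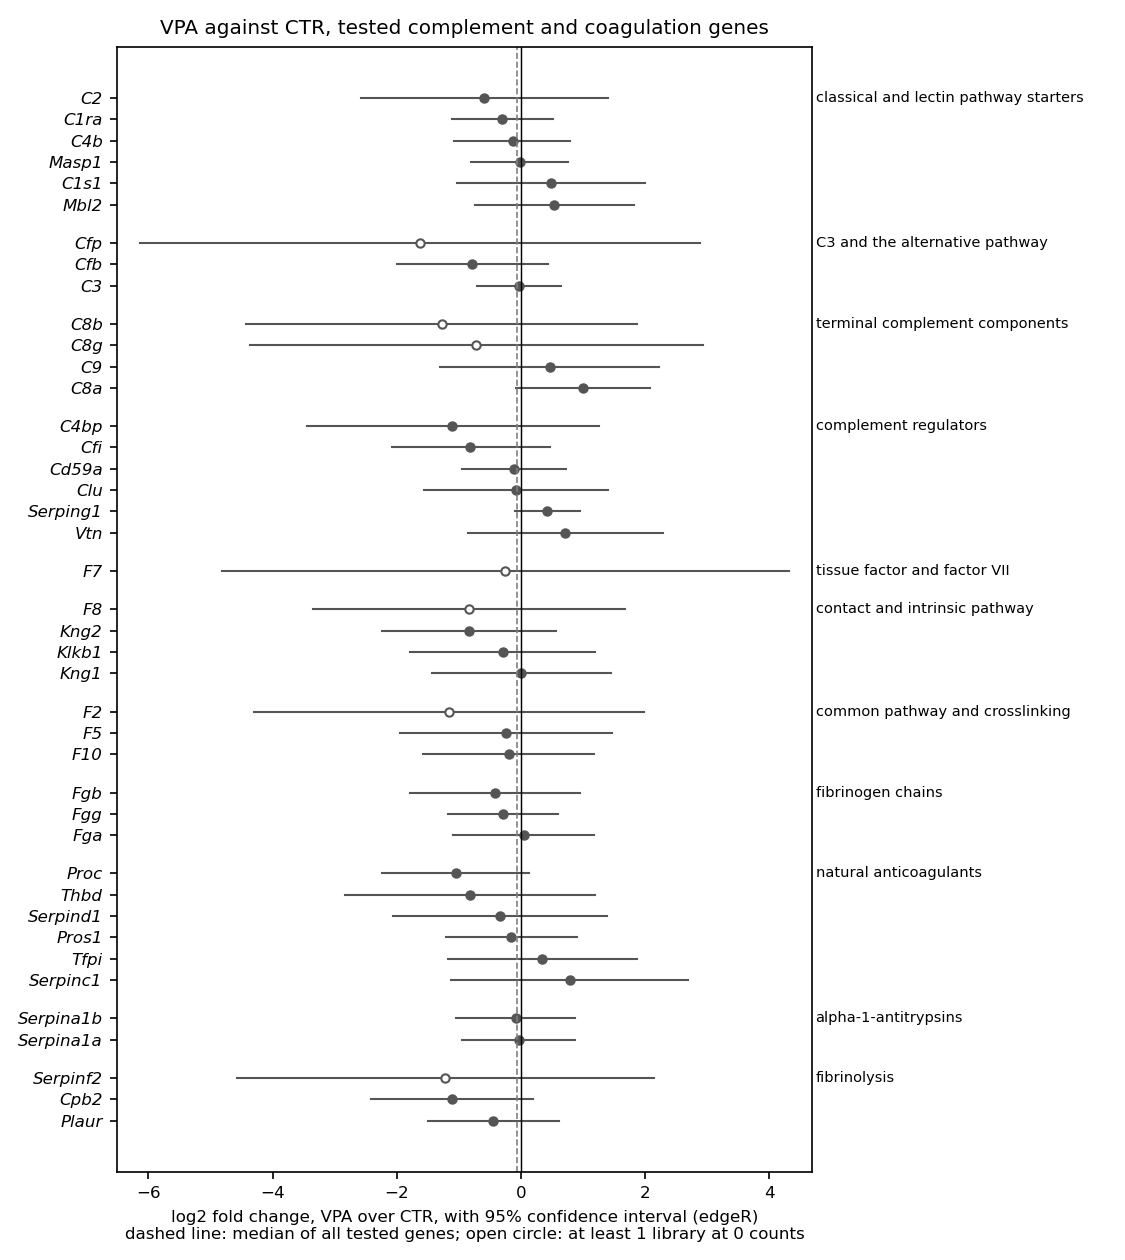
The log2 fold change of each of the 41 tested genes (x axis, VPA over CTR) is plotted, grouped by role on the y axis. Lines are approximate 95% confidence intervals derived from edgeR's test. Every interval crosses 0, 31 of 41 points lie below 0, and the widest intervals belong to genes with at least 1 library at 0 (open circles).

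The fibrinogen chains showed how such a gene group varied. Fibrinogen is a hexamer of α, β and γ chains encoded by Fga, Fgb and Fgg, which lie next to each other on chromosome 3 (GRCm38 chr3:83026076-83033627 on the plus strand, chr3:83040141-83049863 on the minus strand and chr3:83007724-83015049 on the plus strand). Their RefSeq promoter windows (GRCm38.p6, 250 bases before to 50 after the start) are shown with the antitrypsin windows because the chains are made together from these 3 starts. Capitals mark matches on either strand to TTCNNNGAA (a STAT motif), TTGCNNAA (a C/EBP motif) or GTTAATNAT (an HNF1 motif), letters known from promoters of liver genes. The windows are chr3:83025903-83026202 (plus strand) for Fga, chr3:83049814-83050113 (minus strand) for Fgb and chr3:83007474-83007773 (plus strand) for Fgg.

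Fga: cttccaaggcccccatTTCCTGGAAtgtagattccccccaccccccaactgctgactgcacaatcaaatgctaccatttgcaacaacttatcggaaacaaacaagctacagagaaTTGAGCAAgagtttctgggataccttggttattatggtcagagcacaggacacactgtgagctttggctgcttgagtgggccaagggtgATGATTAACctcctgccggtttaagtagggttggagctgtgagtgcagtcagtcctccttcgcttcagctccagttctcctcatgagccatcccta

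Fgb: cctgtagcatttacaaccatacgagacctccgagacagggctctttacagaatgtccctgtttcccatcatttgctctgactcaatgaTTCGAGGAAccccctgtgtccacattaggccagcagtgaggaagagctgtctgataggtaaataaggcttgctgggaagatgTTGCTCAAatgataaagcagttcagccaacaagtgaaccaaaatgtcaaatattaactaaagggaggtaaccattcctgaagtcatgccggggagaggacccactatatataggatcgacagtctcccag

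Fgg: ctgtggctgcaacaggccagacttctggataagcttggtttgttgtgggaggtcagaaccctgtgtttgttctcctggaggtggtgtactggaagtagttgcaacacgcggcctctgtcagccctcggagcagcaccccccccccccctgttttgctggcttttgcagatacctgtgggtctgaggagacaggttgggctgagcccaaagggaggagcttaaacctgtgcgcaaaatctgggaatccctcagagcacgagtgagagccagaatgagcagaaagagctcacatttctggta

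The Fga window held a STAT match at -234, a C/EBP match at -135 and an HNF1 match at -46. Each distance is that of the first base of the match, counted from the RefSeq start on which the window is placed. For Fga this RefSeq start lies inside the GENCODE span printed above, so its distances are not counted from the edge of that span. The Fgb window held a STAT match at -162 and a C/EBP match at -80, and the Fgg window held none of these letters. None of the matches in these windows overlapped another. Over the 40 of 54 genes with a window in the table (43 windows), the C/EBP letters were found in 32.6% of windows against 10.8% of all 32851 windows, the STAT letters in 16.3% against 8.3% and the HNF1 letters in 6.98% against 0.801%. The TATA box letters TATAAA were found in 11.6% of the genes' windows and in 13.6% of all. A match is a description of the letters, and binding was not measured here.

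Fgb stood at 1469, 1351 and 2868 CPM in CTR replicates 1 to 3 and at 1925, 1291, 2151 and 320 CPM in VPA replicates 1 to 4. The groups overlapped, and VPA replicate 4 was below every other library. The log2 fold change was -0.41 (SE 0.59, adjusted p = 0.945 with edgeR's quasi-likelihood test). Fga stood at 125, 170 and 270 CPM in CTR and at 313, 179, 218 and 67.2 CPM in VPA, with a log2 fold change of 0.05 (SE 0.486, edgeR adjusted p = 0.992). The sign of this value turned under other settings. Fgg stood at 63, 95.6 and 118 CPM in CTR and at 128, 54.1, 73.1 and 48.3 CPM in VPA, a log2 fold change of -0.28 (SE 0.38, edgeR adjusted p = 0.937). For all 3 chains replicate 3 was the highest CTR library and replicate 4 the lowest VPA library.

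The classical and lectin pathways start complement from bound antibody and from sugars on a surface, through C1r, C1s, the mannose-binding lectins and their proteases, C4 and C2. Of 6 tested genes, 4 had negative and 2 positive log2 fold changes, between -0.59 and 0.54, and 0 passed. Masp1, a protease of the lectin pathway, was measured with the least error among them, at 125 CPM ± 27.1 (SD, n = 3) in CTR and 123 ± 50.3 (SD, n = 4) in VPA. Its 95% interval ran from -0.80 to 0.76. Mbl2, a mannose-binding lectin, ranged from 55.8 to 85.0 CPM in CTR and from 34.7 to 194 CPM in VPA (log2 fold change 0.54, SE 0.549). C4b, the mouse gene of C4, ranged from 59.1 to 97.0 CPM in CTR and from 39.3 to 122 CPM in VPA, and 15.7% of the read-length windows at its 3' end also occur in its copy C4a. C1ra (log2 fold change -0.30) and C1s1 (0.49), the proteases of C1, and C2 (-0.59), which joins C4 in the convertase, had intervals that crossed 0, and 8.98%, 4.85% and 26.1% of their end windows occur in C1rb, C1s2 and Gm20547. Of the genes that failed the filter, Mbl1 had 14, 26 and 10 counts in CTR and 27, 18, 7 and 0 in VPA. Masp2 had 38 counts in CTR replicate 2 and 0 in every other library, and 401 of its 802 end windows lie in Tardbp, a gene that overlaps it on the other strand, so that these counts cannot be given to Masp2 with certainty.

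C3 is the protein on which all starts of complement converge, and factor B (Cfb) and properdin (Cfp) build and hold together the alternative pathway's convertase. C3 stood at 176, 324 and 252 CPM in CTR and at 332, 169, 279 and 202 CPM in VPA. The groups overlapped almost wholly, with a log2 fold change of -0.03 and an interval from -0.71 to 0.65. Cfb stood at 138, 143 and 281 CPM in CTR and at 156, 35.7, 163 and 83.8 CPM in VPA (log2 fold change -0.78, SE 0.522, edgeR adjusted p = 0.813), and 401 of its 802 end windows are shared with the overlapping gene Gm20547. Cfp had 26, 0 and 17 counts in CTR and 0, 24, 0 and 0 in VPA, so its log2 fold change of -1.63 had an SE of 1.94. Cfd, the factor D gene, was listed at 0 in all 7 libraries.

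The terminal components C6 to C9 form the pore of complement, and C8 is built from the products of C8a, C8b and C8g. The C8 genes did not share a direction. C8a stood at 11.4, 18.9 and 19.2 CPM in CTR and at 52.2, 14.8, 31.3 and 34.7 CPM in VPA. In VPA, 3 of 4 libraries were above every CTR library, and the log2 fold change of 1.00 (SE 0.465) had the smallest unadjusted p of all 41 genes (0.0649, adjusted p = 0.639 with edgeR). C8b stood at 38.2, 43.2 and 35.6 CPM in CTR and at 0, 15.7, 0 and 49.1 CPM in VPA (log2 fold change -1.27, SE 1.35). Its 0 counts in VPA replicates 1 and 3 stood beside 51 and 65 counts in the other VPA libraries. C8g had 35, 143 and 0 counts in CTR and 27, 0, 11 and 11 in VPA. C9 ranged from 9.87 to 34.9 CPM in CTR and from 6.46 to 64.0 CPM in VPA. C6 failed the filter, with counts in CTR replicates 2 and 3 (15 and 30) and VPA replicate 2 (30).

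Of 6 tested regulators of complement, 4 had negative and 2 positive log2 fold changes. Clu encodes clusterin, an extracellular chaperone that also binds the terminal components, and gave the most tags of all 54 genes. It stood at 8025, 3974 and 15180 CPM in CTR and at 5300, 4775, 19021 and 5270 CPM in VPA. The groups overlapped, the libraries of slice culture 71 were highest in both, and the log2 fold change was -0.08 (SE 0.635, edgeR adjusted p = 0.990). Serping1, the C1 inhibitor that also restrains the contact system, stood at 185, 171 and 231 CPM in CTR and at 276, 184, 341 and 257 CPM in VPA. Of the 4 VPA libraries, 3 were above every CTR library, with a log2 fold change of 0.43 (SE 0.226, edgeR adjusted p = 0.70). It was the 1 tested gene that was higher with VPA in all 3 slice cultures with both groups. Vtn (vitronectin) had a log2 fold change of 0.72 (SE 0.674), with VPA replicate 1 at 176 CPM, while the other 3 VPA libraries (25.7 to 55.4 CPM) lay within or just below the CTR range of 28.8 to 65.8 CPM. Cfi, which cleaves C3b and C4b, had a log2 fold change of -0.81 (SE 0.549), C4bp, its cofactor, one of -1.10 (SE 1.01), and Cd59a, a membrane inhibitor of the pore, one of -0.11 (SE 0.362). Cd55 failed the filter, with 20, 0 and 6 counts in CTR and 0, 23, 8 and 0 in VPA.

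Tissue factor (F3) with factor VII (F7) starts coagulation after injury. F3 had 7, 14 and 10 counts in CTR and 10, 8, 0 and 0 in VPA, below the filter. F7 had 25, 0 and 40 counts in CTR and 0, 0, 23 and 23 in VPA, and its 95% interval of -4.82 to 4.32 was wide on both sides of 0.

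The contact and intrinsic pathway runs from factor XII and plasma kallikrein (Klkb1), with the kininogens as cofactors, over factor XI to factor VIII. F12 had 55 counts in CTR replicate 3, 24 in VPA replicate 4 and 0 in the other 5 libraries, and F11 had 48, 30 and 7 counts in CTR replicates 2 and 3 and VPA replicate 4. F8 stood at 9.46, 9.66 and 12.1 CPM in CTR and at 0, 4.92, 5.62 and 12.8 CPM in VPA (log2 fold change -0.83, SE 1.08). Its values are low and VPA replicate 4 reached above every CTR library. Leaving out VPA replicate 4 gave -1.55, and leaving out VPA replicate 1 gave -0.42. Klkb1 had a log2 fold change of -0.29 (SE 0.641).

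The kininogen genes Kng1 and Kng2 are neighbouring copies on chromosome 16 (GRCm38 chr16:23057865-23082078 on the plus strand and chr16:22985854-23029482 on the minus strand) whose products release bradykinin. Kng1 stood at 200, 133 and 528 CPM in CTR and at 362, 151, 509 and 134 CPM in VPA, a log2 fold change of 0.01 (SE 0.62). Kng2 stood at 102, 64.8 and 287 CPM in CTR and at 83.6, 50.1, 157 and 48.3 CPM in VPA, a log2 fold change of -0.83 (SE 0.602, edgeR adjusted p = 0.842). Both genes overlapped between the groups. Their ratio within a library did not: the counts of Kng1 over those of Kng2 were 1.96, 2.05 and 1.84 in CTR and 4.34, 3.01, 3.23 and 2.77 in VPA. An exact permutation test (two-sided) gave p = 0.0286, the smallest that 3 libraries against 4 can give, and 0.114 after Benjamini-Hochberg adjustment over the 4 ratios examined. A ratio that separates alone among 4 cannot go below that adjusted value with these group sizes, and the pairs were chosen after the levels had been seen, so the separation is given as a description. A ratio within a library does not move with the scaling. At the 3' ends, 0.951% of the windows of Kng1 and 2.99% of those of Kng2 occur in the other gene.

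**Figure D2:**
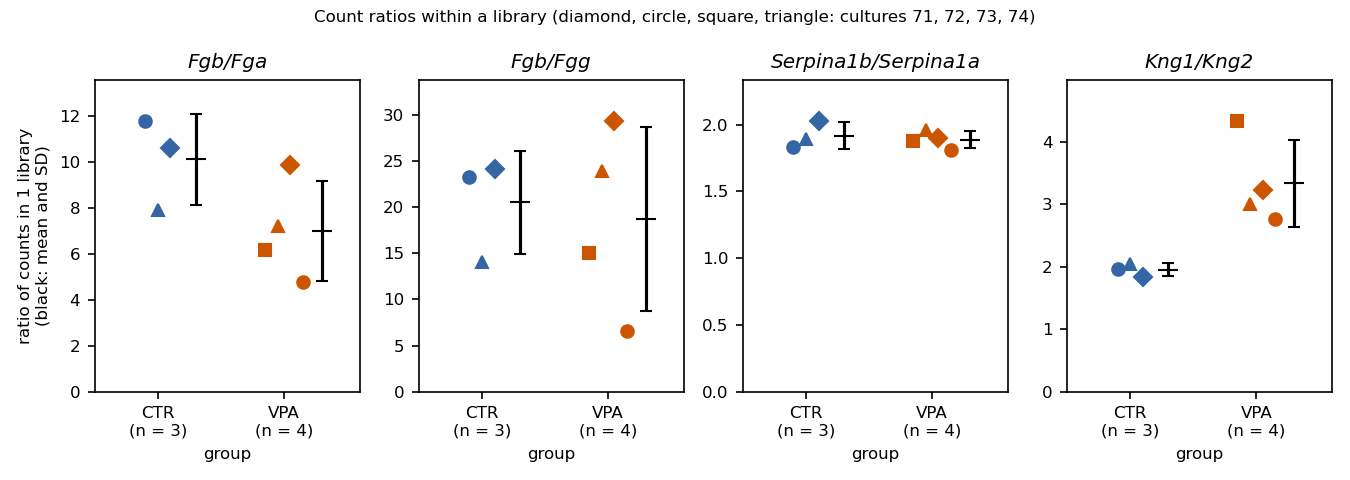
Ratios of counts within 1 library are plotted for 4 pairs of genes (y axis, no unit), with 1 symbol per library, blue for CTR and orange for VPA, and the mean and SD in black. The Kng1 to Kng2 ratio lay between 1.84 and 2.05 in CTR and between 2.77 and 4.34 in VPA, while the other 3 pairs overlapped between the groups.

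The other 3 ratios overlapped between the groups. Fgb over Fga averaged 10.1 ± 1.98 (SD, n = 3) in CTR and 7.0 ± 2.17 (SD, n = 4) in VPA (exact permutation p = 0.114). Fgb over Fgg averaged 20.6 ± 5.58 and 18.7 ± 10 (exact permutation p = 0.771). The ratio of the antitrypsin genes Serpina1b over Serpina1a varied least, between 1.81 and 2.03 over all 7 libraries (exact permutation p = 0.629).

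In the common pathway, factor X with factor V cuts prothrombin to thrombin, and factor XIII crosslinks fibrin. F2 stood at 50, 61.9 and 121 CPM in CTR and at 0, 87.6, 0 and 46.8 CPM in VPA. A library at 0 could still have held up to 3 counts, or 1.96 CPM in VPA replicate 1 and 2.41 CPM in VPA replicate 3, a limit for counting error only. The log2 fold change of -1.16 had an SE of 1.35. F5 ranged from 31.5 to 76.8 CPM in CTR and from 10.5 to 72.3 CPM in VPA, and F10 from 24.8 to 37.8 CPM and from 7.99 to 55.5 CPM. F13b had 14, 16 and 25 counts in CTR, 42 in VPA replicate 1 and 0 in the other 3 VPA libraries. Vwf, the endothelial gene of von Willebrand factor, had 15 counts in CTR replicate 2 and none elsewhere.

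Among the natural anticoagulants, 4 of 6 tested genes had negative log2 fold changes. Proc, the gene of protein C, which cuts factors V and VIII, stood at 49.6, 30.2 and 100 CPM in CTR and at 20.2, 20, 52.2 and 23.4 CPM in VPA. In VPA, 3 of 4 libraries lay below every CTR library, and the log2 fold change was -1.05 (SE 0.509, edgeR adjusted p = 0.656). Leaving out CTR replicate 3 gave -0.49, and leaving out VPA replicate 3 gave -1.50. Pros1, its cofactor protein S, had a log2 fold change of -0.15 (SE 0.455). Thbd, the endothelial thrombomodulin that switches thrombin to protein C, stood at 9.85, 8.67 and 9.87 CPM in CTR and at 0.653, 8.92, 3.21 and 8.31 CPM in VPA (log2 fold change -0.82, SE 0.865). The 2 low VPA libraries, replicates 1 and 3, were also those with the lowest summed endothelial markers, and the part of the endothelial cells in the result was not tested. Tfpi, which blocks factor VII with tissue factor, stood at 5.91, 16.2 and 14.3 CPM in CTR and at 7.18, 31.7, 11.2 and 11.3 CPM in VPA, and its log2 fold change of 0.35 (SE 0.658) became -0.29 without VPA replicate 2. Serpinc1 (antithrombin) ranged from 14.2 to 69.2 CPM in CTR and from 25.7 to 151 CPM in VPA, and 32.9% of its end windows lie in Zbtb37 on the other strand. Serpind1 (heparin cofactor II) had a log2 fold change of -0.34 (SE 0.74).

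The α-1-antitrypsins are the main plasma inhibitors of neutrophil elastase. Serpina1b stood at 1845, 1571 and 3813 CPM in CTR and at 2224, 1489, 3679 and 1754 CPM in VPA, a log2 fold change of -0.08 (SE 0.412, edgeR adjusted p = 0.982). Serpina1a stood at 1008, 830 and 1874 CPM in CTR and at 1186, 758, 1935 and 967 CPM in VPA (log2 fold change -0.03, SE 0.392). In both genes the libraries of slice culture 71 were the highest of their group and the other libraries of CTR and VPA overlapped. Of the end windows of Serpina1a, 33.1% also occur in other copies of the family, against 0.781% for Serpina1b. Their promoter windows (chr12:103863570-103863869 for Serpina1a and chr12:103738140-103738439 for Serpina1b, both on the minus strand) are shown because the 2 genes moved together in all 7 libraries, with the C/EBP letters in capitals.

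Serpina1a: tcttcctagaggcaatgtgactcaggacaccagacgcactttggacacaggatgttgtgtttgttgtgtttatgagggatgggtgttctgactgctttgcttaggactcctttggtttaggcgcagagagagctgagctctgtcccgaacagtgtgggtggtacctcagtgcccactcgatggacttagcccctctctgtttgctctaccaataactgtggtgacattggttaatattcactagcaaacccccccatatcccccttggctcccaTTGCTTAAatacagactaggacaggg

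Serpina1b: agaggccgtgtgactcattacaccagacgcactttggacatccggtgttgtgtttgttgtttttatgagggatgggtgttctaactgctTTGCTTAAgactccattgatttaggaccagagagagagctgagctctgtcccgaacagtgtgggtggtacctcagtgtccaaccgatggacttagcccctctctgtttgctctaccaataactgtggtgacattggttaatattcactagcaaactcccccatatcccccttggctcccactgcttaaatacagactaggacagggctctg

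Of 292 aligned bases, 275 were identical (94.2%). The C/EBP letters begin at -161 in Serpina1b and at 24 in Serpina1a, counted from the RefSeq start on which each window is placed.

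Fibrinolysis turns plasminogen (Plg) into plasmin through the activators Plat and Plau, with Plaur as the receptor of Plau, and Serpinf2 and Cpb2 hold it back. Plg had 38 counts in VPA replicate 4 and 0 in the other 6 libraries, and 80.5% of its end windows lie in Slc22a3 on the other strand. Plat had 23 counts in CTR replicate 3 and 43 in VPA replicate 2, and Plau 28 counts in CTR replicate 2, with 0 elsewhere. None of these 3 genes could be compared between the groups. Plaur stood at 28.4, 15.4 and 31.8 CPM in CTR and at 9.14, 20, 17.7 and 27.2 CPM in VPA (log2 fold change -0.44, SE 0.455, edgeR adjusted p = 0.910). Cpb2, a carboxypeptidase that protects fibrin from plasmin, stood at 37.8, 18.9 and 66.9 CPM in CTR and at 33.3, 10.1, 20.9 and 12.1 CPM in VPA (log2 fold change -1.11, SE 0.558, edgeR adjusted p = 0.684), with -0.60 when CTR replicate 3 was left out and -1.53 when VPA replicate 1 was left out. Serpinf2, the plasmin inhibitor, stood at 48.1, 19.5 and 132 CPM in CTR and at 0, 36.6, 77.1 and 0 CPM in VPA (log2 fold change -1.22, SE 1.44).

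The libraries of slice culture 71 stood above the others of their groups for many of these genes. This pattern was noticed in the values, so it is a description without a test. CTR replicate 3, of slice culture 71, was the highest CTR library for 34 of 41 genes (82.9%, against 32.4% of all tested genes), and VPA replicate 3, of the same slice culture, was the highest VPA library for 20 of 41 (48.8%, against 24.6%). Both held for 20 genes (48.8%), where 11.4% of all tested genes had slice culture 71 highest in both groups. They were C1ra, C1s1, C2, C4b, Mbl2, Cfb, Cfi, C4bp, Serping1, Clu, F7, Kng1, Kng2, F5, Fgb, Serpind1, Proc, Serpina1a, Serpina1b and Serpinf2. With library totals and no scaling factor the number was 17. Among 33 other tested genes of the same pathways, described below, it was 7.

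The mean of the slice culture 71 libraries over that of the other 5 had a median of 1.47 over the 41 genes and of 0.985 over all tested genes, and it exceeded 2 for 15 genes (36.6%, against 5.16% of all). The 6 highest ratios were 5.01 for Serpinf2, 4.33 for C4bp, 3.71 for F7, 3.18 for Kng2, 3.17 for C2 and 3.13 for Clu. At the low end it was 0.325 for C8g, 0.444 for Serpinc1 and 0.61 for C8b. The 54 genes together took 2.86% of the counts of CTR replicate 3 and 2.65% of those of VPA replicate 3. In the other CTR libraries this share was 1.32% and 1.04%, and in the other VPA libraries 1.35%, 1.05% and 0.91%. Clu alone supplied 39.7% to 63.9% of these counts. Without Clu the share was 1.27% and 0.957% in slice culture 71 and 0.43% to 0.813% in the other libraries.

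The summed hepatocyte markers were highest in CTR replicate 3 (17864 CPM) and VPA replicate 3 (15337 CPM) and lowest in VPA replicate 4 (4358 CPM), where the 54 genes also took the smallest share. Trf, the transferrin gene, gave 8822 and 8931 CPM of the sums in slice culture 71. Without Trf, CTR replicate 3 (9042 CPM) was still the highest CTR library, but VPA replicate 1 (9590 CPM) stood above VPA replicate 3 (6407 CPM). Of the 10 tested hepatocyte markers, 4 were highest in slice culture 71 in both groups. The part of the hepatocytes in the difference between slice cultures was not tested. The median log2 deviation of the 41 genes from their mean over the libraries was 0.79 in CTR replicate 3 and 0.42 in VPA replicate 3, while that of all tested genes lay between -0.05 and 0.13 in the 7 libraries.

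**Figure D3:**
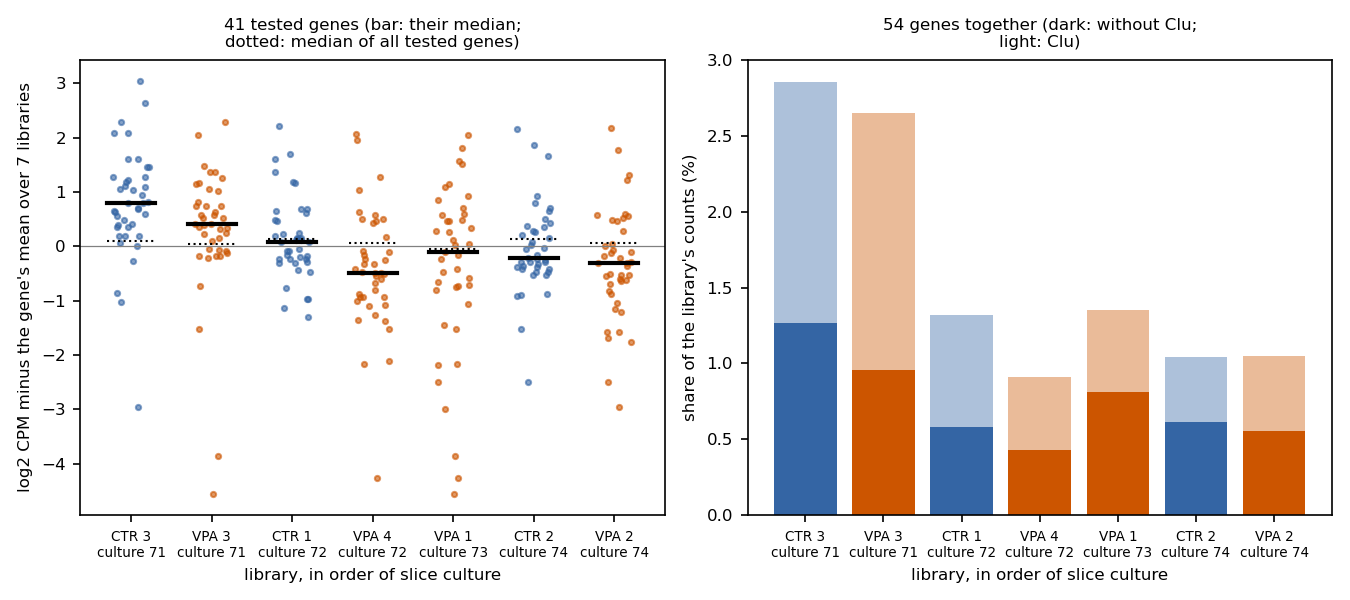
Left, each point is 1 of the 41 tested genes in 1 library (y axis, log2 CPM minus the gene's mean over the 7 libraries), with their median as a bar and the median of all tested genes dotted; right, the share of the library's counts taken by the 54 genes, with Clu in the lighter shade. The medians of the slice culture 71 libraries, 0.79 and 0.42, stand above those of the other 5, and so do their shares, 2.86% and 2.65%.

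Within the slice cultures with both groups, VPA was set against CTR of the same number. In slice culture 71, 29 of 41 genes were lower and 12 higher with VPA (70.7% lower, against 51.8% of all tested genes, with a median log2 ratio of -0.31 against -0.03). In slice culture 72, 30 were lower and 11 higher (73.2% lower against 53.6%, median -0.38 against -0.06). In slice culture 74, 22 were lower and 18 higher (53.7% lower against 52.5%, median -0.07 against -0.05). Each of these compares 1 library with 1 library and has no replicate of its own.

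Of the 41 genes, 11 (26.8%) were lower with VPA in all 3 slice cultures, against 19.9% of all tested genes, and 1 (2.44%) was higher in all 3, against 14.7%. The 11 were Cfb, Cfi, Vtn, Kng2, F5, F10, Fgb, Fgg, Proc, Serpina1b and Cpb2. Their log2 ratios ran from near 0 to large. Serpina1b had -0.05, -0.07 and -0.08 in slice cultures 71, 72 and 74, and Cfi had -0.85, -0.73 and -0.79. Cpb2 had -1.64, -1.58 and -0.85, and Proc -0.93, -1.06 and -0.57. For Fgb they were -0.41, -2.20 and -0.07, the largest in slice culture 72. Serping1, the gene higher in all 3, had 0.56, 0.47 and 0.11.

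Many of these genes were missing from single libraries. Of the 54 genes, 34 had a count in every library and 20 were at 0 in at least 1, with 6 to 9 genes at 0 in each CTR library and 10 to 16 in each VPA library. Some zeros stood beside high counts: F2 had 0 counts in VPA replicates 1 and 3 and 285 in VPA replicate 2, and Serpinf2 had 0 in VPA replicates 1 and 4 and 119 and 96 in the others. Where the other libraries of the group predicted at least 20 counts for the library's depth, 19 of 262 values of these genes (7.25%) were 0, against 4.44% over all genes. The share was 7.09% in CTR and 7.41% in VPA for these genes, and 2.94% and 5.82% for all genes. No test was made of these shares. The 4 genes with no count in any VPA library were Masp2, Cfd, Vwf and Plau, and each of the 3 with counts in CTR had them in CTR replicate 2 alone, the deepest library.

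**Figure D4:**
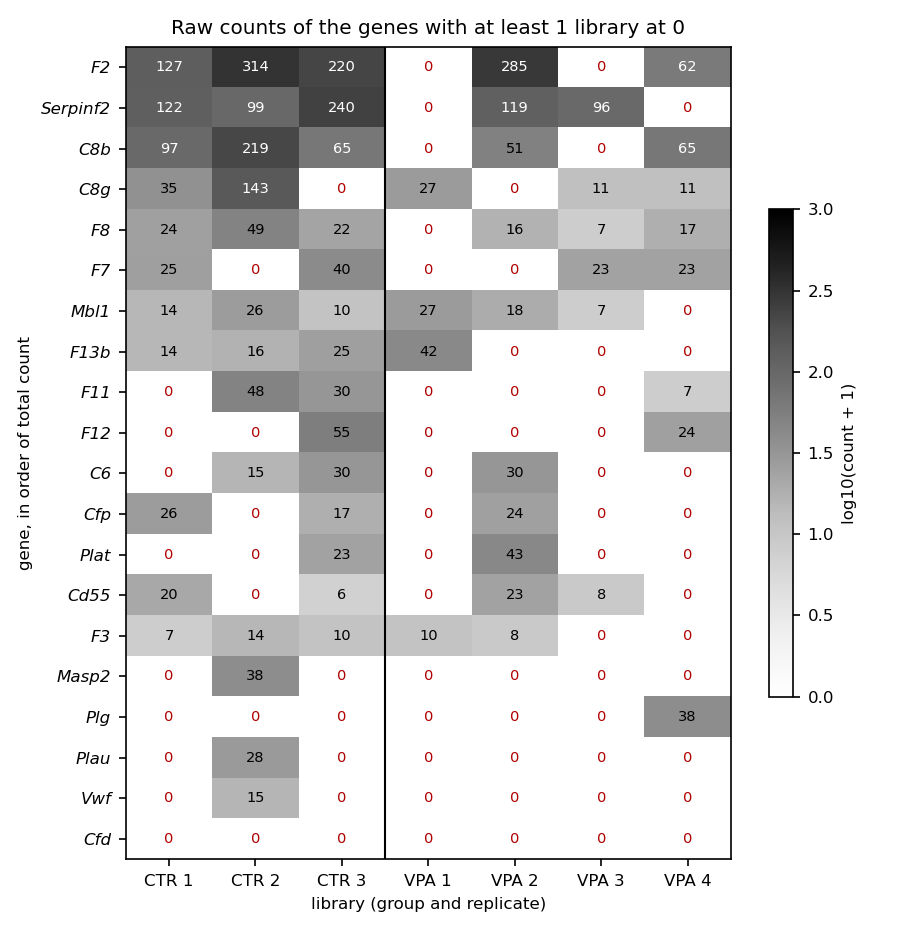
Raw counts are printed for the 20 genes with at least 1 library at 0 (y axis, in order of total count) in the 7 libraries (x axis), with darker cells for higher counts on a log10(count + 1) scale. F2, Serpinf2 and C8b have 0 counts (red) in 2 VPA libraries each and 51 or more in the other 2.

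By mean CPM over the 7 libraries, 4 of 54 genes were above 1000 CPM (Clu, Serpina1b, Fgb and Serpina1a), 7 between 100 and 1000, 25 between 10 and 100, and 18 at or below 10. These are tag levels, which were not scaled for length.

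**Figure D5:**
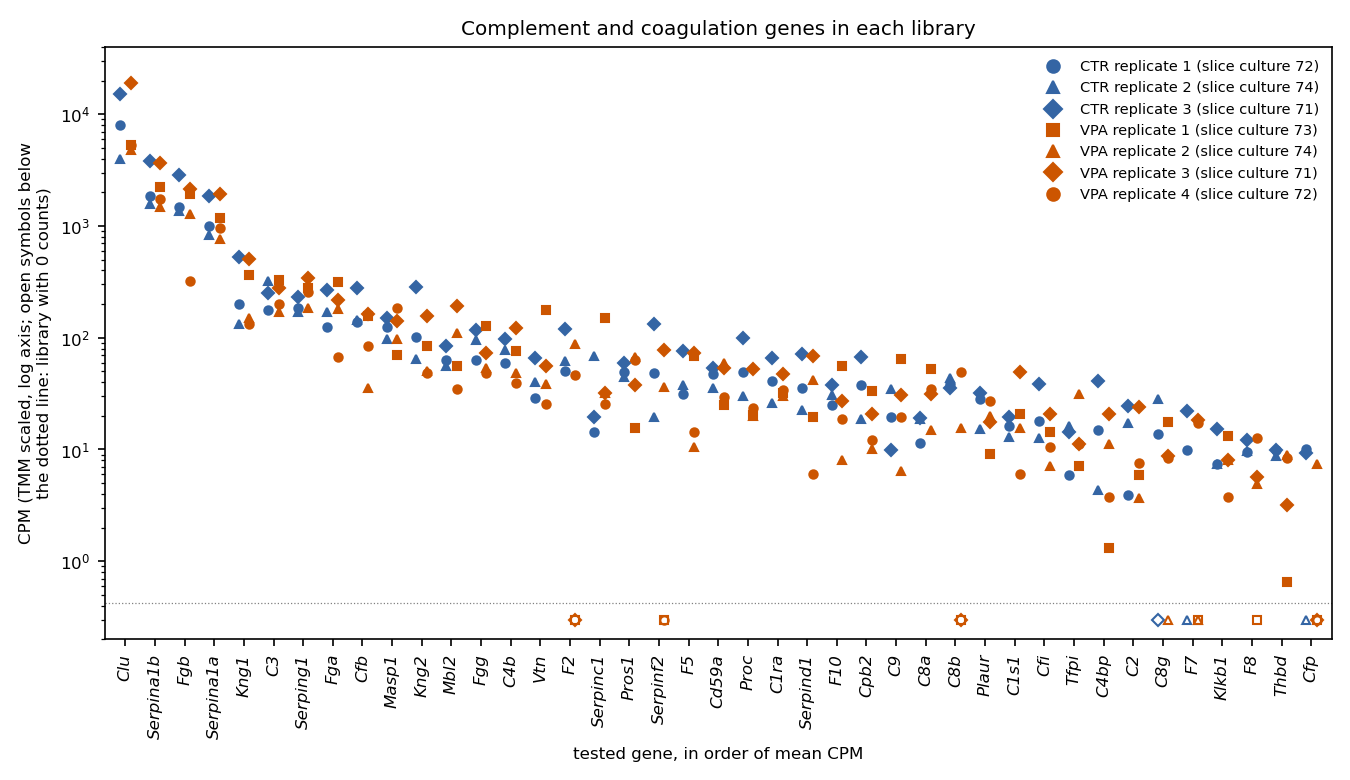
The CPM of the 41 tested genes (y axis, log scale) is plotted for each library, with blue for CTR, orange for VPA and the symbol for the slice culture. CTR and VPA overlap in every gene, and the diamonds of slice culture 71 top both groups in 20 genes.

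Another 53 genes of the same pathways, listed by function and not among the 54, were read in the same fit. Of these, 33 were tested, 18 with negative and 15 with positive log2 fold changes (median -0.05), and 0 passed the adjusted threshold. At an unadjusted p under 0.05, 2 were lower with VPA (6.06%, near the 4.62% of all tested genes) and 0 higher, and 3 had every VPA library below every CTR library (9.09%, near the 7.41% of all). Cd93, a receptor of endothelial and myeloid cells once named as a C1q receptor, stood at 116, 183 and 99.8 CPM in CTR and at 30.0, 89.2, 35.3 and 43.8 CPM in VPA. The groups did not overlap, with a log2 fold change of -1.41 (SE 0.41, unadjusted p = 0.0099, adjusted p = 0.421 with edgeR). Anxa2, which binds plasminogen and Plat at the cell surface, stood at 583, 356 and 805 CPM in CTR and at 163, 196, 384 and 354 CPM in VPA, with a log2 fold change of -1.09 (SE 0.384, unadjusted p = 0.0237, adjusted p = 0.529 with edgeR). Itgam and Serpina10 were the other 2 of 3 genes whose groups did not overlap, both lower with VPA, and both had VPA libraries at 0.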

How the data were processed

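RNA-seq of mouse PCLS on day 3 was analysed in 3 CTR and 4 VPA libraries. The authors prepared QuantSeq 3' mRNA libraries, trimmed the reads, mapped them with STAR to GRCm38.p6, ran StringTie, and deposited raw counts per Ensembl gene without normalization. How reads were counted, with or without strand and for reads that map several times, is not given in the sources used here. Every count column was matched to a sample by its label.

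Counts were tested in R 4.3.3 with edgeR 4.0.16 (TMM, filterByExpr, robust quasi-likelihood fit, condition as the only term) over 10876 genes; p-values were adjusted by Benjamini-Hochberg and called under 0.05. Single ratios were compared by a two-sided exact permutation test over 35 splits, with a smallest p of 0.0286. log2 CPM used a prior count of 2. Alternatives were DESeq2 1.42.0, voom of limma 3.58.1, other filters and normalizations, a block for slice culture or for replicate number, and leaving out each library. The code was tested on simulated data.

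The genes, roles, pathway genes and cell type markers were chosen with earlier results of these data known. Genes were to be named when among the 12 smallest unadjusted p under 0.05 (none were), the 3 highest mean CPM, the fibrinogen chains, Vwf, F8, Thbd, Tfpi, F3 and Cfp, and Plat, Plau, Plaur and Plg. All other genes are named to account for the list, and those given per library beyond the rule were chosen after their values were seen. Reads shared with other genes were counted as 100-base windows in the last 500 bases of each GENCODE transcript that occur, on either strand, in another gene. Promoter windows came from RefSeq.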

Additional observations from a re-analysis of the deposited data

Results flagged for a closer look

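In the VPA group, 11 of the 54 genes had 1 library that stood apart from the other 3 by the gap between neighbouring values relative to the whole range (Dixon's criterion at 95%), as had the total count. The criterion was applied to 51 groups of values, and 12 were flagged. Chance alone flags about 1 in 20 groups of normally distributed values, and whether these values are so distributed was not checked. A gene with counts in 1 VPA library only is always flagged. The groups of 3 CTR libraries are too small for this criterion. No explanation was weighed for any of these.

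The genes with a count in 1 VPA library only were Cfp (7.38 CPM in replicate 2), C6 (9.22 CPM in replicate 2), Plat (13.2 CPM in replicate 2), F11 (5.29 CPM in replicate 4), F12 (18.1 CPM in replicate 4), Plg (28.7 CPM in replicate 4) and F13b (27.4 CPM in replicate 1). In genes detected in all 4 VPA libraries, Clu stood apart at 19021 CPM and Proc at 52.2 CPM in replicate 3, Serpinc1 at 151 CPM in replicate 1 and Tfpi at 31.7 CPM in replicate 2. VPA replicate 2 also had 3102450 counts on genes, above the other VPA libraries.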

How the results depend on the processing

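No gene of the 54 was called under any of the 17 other fits, and no gene's groups separated under 3 other scalings. Over all genes, the 1 call became 154 with DESeq2, 10 without a filter, 36 with at least 10 counts in every library, 0 without slice culture 71 (added after seeing the data) and 0 to 2 with 1 library left out. Genes of the list lower at an unadjusted p under 0.05, 0 in the main comparison, were 1 with limma-voom (C8b), 2 without a filter and 2 with at least 10 counts (Cpb2 and Proc in each), 1 without slice culture 71 (Proc) and 0 to 2 with 1 library left out. Higher ones were 1 with at least 10 counts (C8a, 3.57% against 7.79% of all genes) and 0 to 2 with 1 library left out (C8a and Serping1 without VPA replicate 2, 5% against 3.32%). Of all genes, 10% were lower at that threshold with limma-voom, 4.88% without a filter, 6.22% with at least 10 counts, 3.82% without slice culture 71 and 2.83% to 6.22% with 1 library left out. The causes were not tested.

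With a replicate block by slice culture, 0 genes were called and 5 of the list were lower at an unadjusted p under 0.05 (Cfb, Cpb2, Fgg, Kng2 and Proc, 12.2% of 41 against 4.67% of all tested genes, adjusted p = 0.554 with edgeR in each). With a replicate block by replicate number, 0 were called and 2 were lower (Kng2 and Proc, 4.88% against 5.63%). The labels do not say what the number marks, so it is no term of the main comparison and serves only for the block and the side by side values within a slice culture. Over all tested genes, the CTR and VPA deviations from the group means correlated at 0.107, 0.0256 and 0.0546 for slice cultures 71, 72 and 74.

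The median log2 fold change of the list kept its sign and ranged from -0.48 to -0.01 with 1 library left out, the latter without CTR replicate 3. Of 166 other values for the 10 tested genes of the naming rule, 148 kept their sign and 18 turned it. All 85 values of C8a, Cfb, Cpb2, Proc and Serping1, followed in addition, kept theirs, and no adjusted p was below 0.309. Cfp became 0.19 with limma-voom. Fga became -0.04 with limma-voom, -0.06 without a filter and -0.36 with the slice culture block, and ran from -0.28 to 0.37 with 1 library left out. Serpina1b became 0.05 with the replicate number block, 0.06 without slice culture 71, and ran from -0.41 to 0.39. Clu ran from -0.83 to 0.49 and Tfpi from -0.29 to 0.62. Without a change of sign, Fgb ran from -0.69 to -0.02, Fgg from -0.66 to -0.10 and Thbd from -1.21 to -0.45. Likewise, Cfp ran from -2.25 to -1.19, Plaur from -0.71 to -0.21, Cfb from -1.04 to -0.39 and C8a from 0.69 to 1.26. Of the 54 genes, 18 had a mean of at most 10 CPM, and in the shallowest library 3 counts are 2.41 CPM. How far depth limited the precision was not tested.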
